A study of Mus musculus with 28 samples.

Results

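The 78 genes described here make the small nucleolar RNAs (snoRNAs) and small Cajal body RNAs (scaRNAs) measured in newborn mouse lung. A gene was a member where a probe set of the array carried 1 gene symbol in the platform annotation and that symbol began with Snord, Snora or Scarna. Where a gene had several such sets the brightest was used, which left 78 of the 22180 genes in the table: 47 C/D box snoRNAs (Snord), 26 H/ACA box snoRNAs (Snora) and 5 scaRNAs (Scarna). Another 46 probe sets were left out because they shared their annotation with a second symbol.

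snoRNAs are short nuclear RNAs that work inside ribonucleoproteins. C/D box members mostly guide ribose methylation of ribosomal RNA, H/ACA box members mostly guide conversion of uridine to pseudouridine, and a few of either class are needed to cut the ribosomal RNA precursor. scaRNAs guide the same changes on spliceosomal RNAs in Cajal bodies. In mice most of them are cut from introns of host genes, many of which make ribosomal proteins or translation factors.

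The study measured 1 array for each of 28 animals, from whole lungs taken on postnatal day 0. With antenatal N-acetyl cysteine (NAC, a thiol antioxidant given as 0.5% to pregnant females) there were 4 arrays of DKO+NAC, 3 of HRas-KO+NAC, 3 of NRas-KO+NAC and 4 of Control+NAC. Without it there were 5 arrays of DKO, 3 of HRas-KO, 3 of NRas-KO and 3 of Control. DKO lacks both HRas and NRas, each single knockout lacks the gene in its name, and the series title reports that DKO mice die of respiratory distress. The labels give no allele, strain or Cre driver, and do not define Control further. The 3 HRas-KO+NAC arrays are known as treated from their source labels only.

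Values are log2 intensities that the authors normalized, and a difference of 1 on this scale is 2-fold. Nras, the transcript lost by design, lay at 7.56 to 8.08 in DKO+NAC and 7.56 to 7.80 in NRas-KO+NAC, against 8.21 to 8.47 in Control+NAC. Without NAC it lay at 7.40 to 7.74 in DKO and 7.58 to 7.77 in NRas-KO, against 8.07 to 8.35 in Control. The value of 8.08 was DKO+NAC replicate 4 alone and lay within the untreated Control range. The other DKO+NAC arrays lay at 7.56 to 7.74. Lung markers fitted the tissue label, with the surfactant gene Sftpb at 12.2 to 12.8 and the club cell gene Scgb1a1 at 11.2 to 12.7 over all arrays. Xist, a transcript of female cells, was high on all 4 DKO+NAC arrays and on 0 of 3 HRas-KO+NAC arrays, and the other 6 groups held 1 or 2 such arrays each. With Xist as a term in the fit, DKO against Control gave the same count of members, 27 higher and 1 lower. High Xist was less balanced in the NAC comparisons of DKO (4 of 4 arrays against 2 of 5) and HRas-KO (0 of 3 against 2 of 3). Member counts with that term are not given for those comparisons. Of 53 named differences recomputed across comparisons, 1 lost its call with Xist as a term.

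Sample titles end in an animal code whose start may mark a litter or collection, which the labels do not say. The starts of the DKO arrays (G185, G186 and H797) occurred in no other group, and no start occurred both with and without NAC. Genotype and code start therefore cannot be told apart for DKO, nor can NAC and code start. The other untreated arrays carry start C118 or H058, except HRas-KO replicate 1, whose start C117 occurred on no other array. Between C118 and H058, snoRNA levels differed within a genotype. Over the 78 genes the median difference, C118 minus H058, was 0.26 among HRas-KO arrays (53 genes above 0). It was 0.19 among NRas-KO arrays (53 above 0) and 0.41 among Control arrays (59 above 0). Over all 22180 genes these medians were -0.0020, -0.012 and 0.0064. Each of these rests on 1 C118 array and 1 or 2 H058 arrays and was not tested. Control replicate 1 carries C118, while Control replicates 2 and 3 carry H058.

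**Figure D1:**
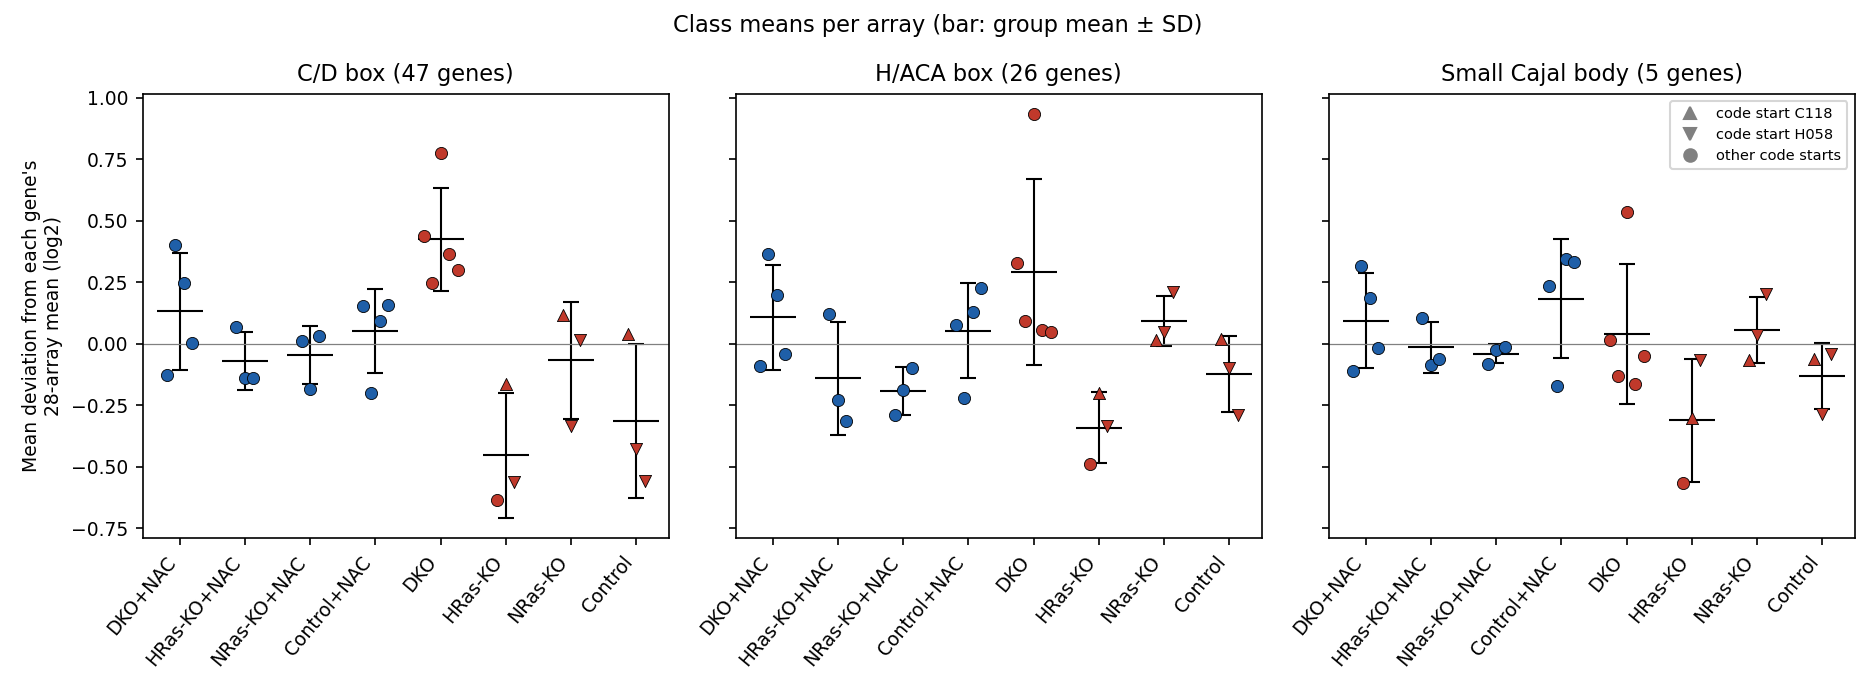
Mean deviation of the genes of each class from their own 28-array means (log2, vertical axis) on every array, by group, with the group mean ± SD as bars and code starts C118 and H058 as triangles. The 5 DKO arrays lie at 0.25 to 0.78 for C/D box genes, above the 3 Control arrays at -0.56 to 0.04, and DKO replicate 3 is the highest point for all 3 classes.

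Averaged over the 47 genes, C/D box RNAs stood 0.42 ± 0.21 (SD, n = 5) above their 28-array means in DKO, against -0.31 ± 0.31 (n = 3) in Control. The HRas-KO mean was -0.45 ± 0.25 (n = 3), and the NRas-KO mean was -0.07 ± 0.24 (n = 3). HRas-KO replicate 1, the C117 array, was the lowest of its group at -0.64. The 5 DKO arrays lay at 0.44, 0.25, 0.78, 0.36 and 0.30, and the 3 Control arrays at 0.04, -0.43 and -0.56. Every DKO array was thus above every Control array, and the C118 Control array was the nearest. For H/ACA box RNAs the mean was 0.29 ± 0.38 (n = 5) in DKO, against -0.12 ± 0.15 (n = 3) in Control. DKO replicate 3 alone reached 0.94 for this class, against 0.33, 0.09, 0.06 and 0.05 on DKO replicates 1, 2, 4 and 5. For the 5 scaRNAs it was 0.04 ± 0.28 (n = 5) in DKO, against -0.13 ± 0.14 (n = 3) in Control, with overlapping arrays.

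In lungs without both Ras genes, 27 of the 78 genes rose against Control and 1 fell (limma, 8 group means over 28 arrays, Benjamini-Hochberg adjusted p under 0.05 over all genes). Of all genes tested, 2.48% were called higher and 1.35% lower in that comparison, 3.83% in all. The C/D box gave 20 of the 27 rises among 47 genes, the H/ACA box 7 among 26 and the scaRNAs 0 among 5. The estimate was above 0 in 67 of the 78, with a median of 0.60, against 0.019 over all genes. By class the median difference, DKO minus Control, was 0.81 for C/D box, 0.28 for H/ACA box and 0.41 for scaRNA genes. The C/D median exceeded the H/ACA median by 0.52, or by 0.33 when means replaced medians. Per array this class contrast was 0.11, 0.15, -0.16, 0.31 and 0.25 on the DKO arrays, against 0.02, -0.33 and -0.27 on the Control arrays. The groups overlapped there because of DKO replicate 3. In bulk lung, fewer cells of a type and less RNA per cell cannot be told apart.

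The count rested on the Control arrays of start H058. Without Control replicate 2 or without Control replicate 3 it was 12 in each case, all higher, and without Control replicate 1 it was 32. With only the 8 compared arrays fitted it was 13, all higher. Without DKO replicates 1 and 3, both high in snoRNA signal and in Xist, it was 16 (13 higher, 3 lower). Set against Control replicate 1 alone, the 27 genes had a median DKO difference of 0.64 (0.18 to 1.65), and against the H058 Control arrays a median of 1.37 (0.79 to 2.34). By code start, the 78 genes had a median difference from Control of 0.74 on the 3 G185 arrays, 0.50 on the G186 array and 0.41 on the H797 array. Of the 78 genes, 28 were higher on every DKO array than on all 9 arrays of HRas-KO, NRas-KO and Control, where 2.65% of all genes were. These were 19 C/D box, 8 H/ACA box and 1 scaRNA gene.

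**Figure D2:**
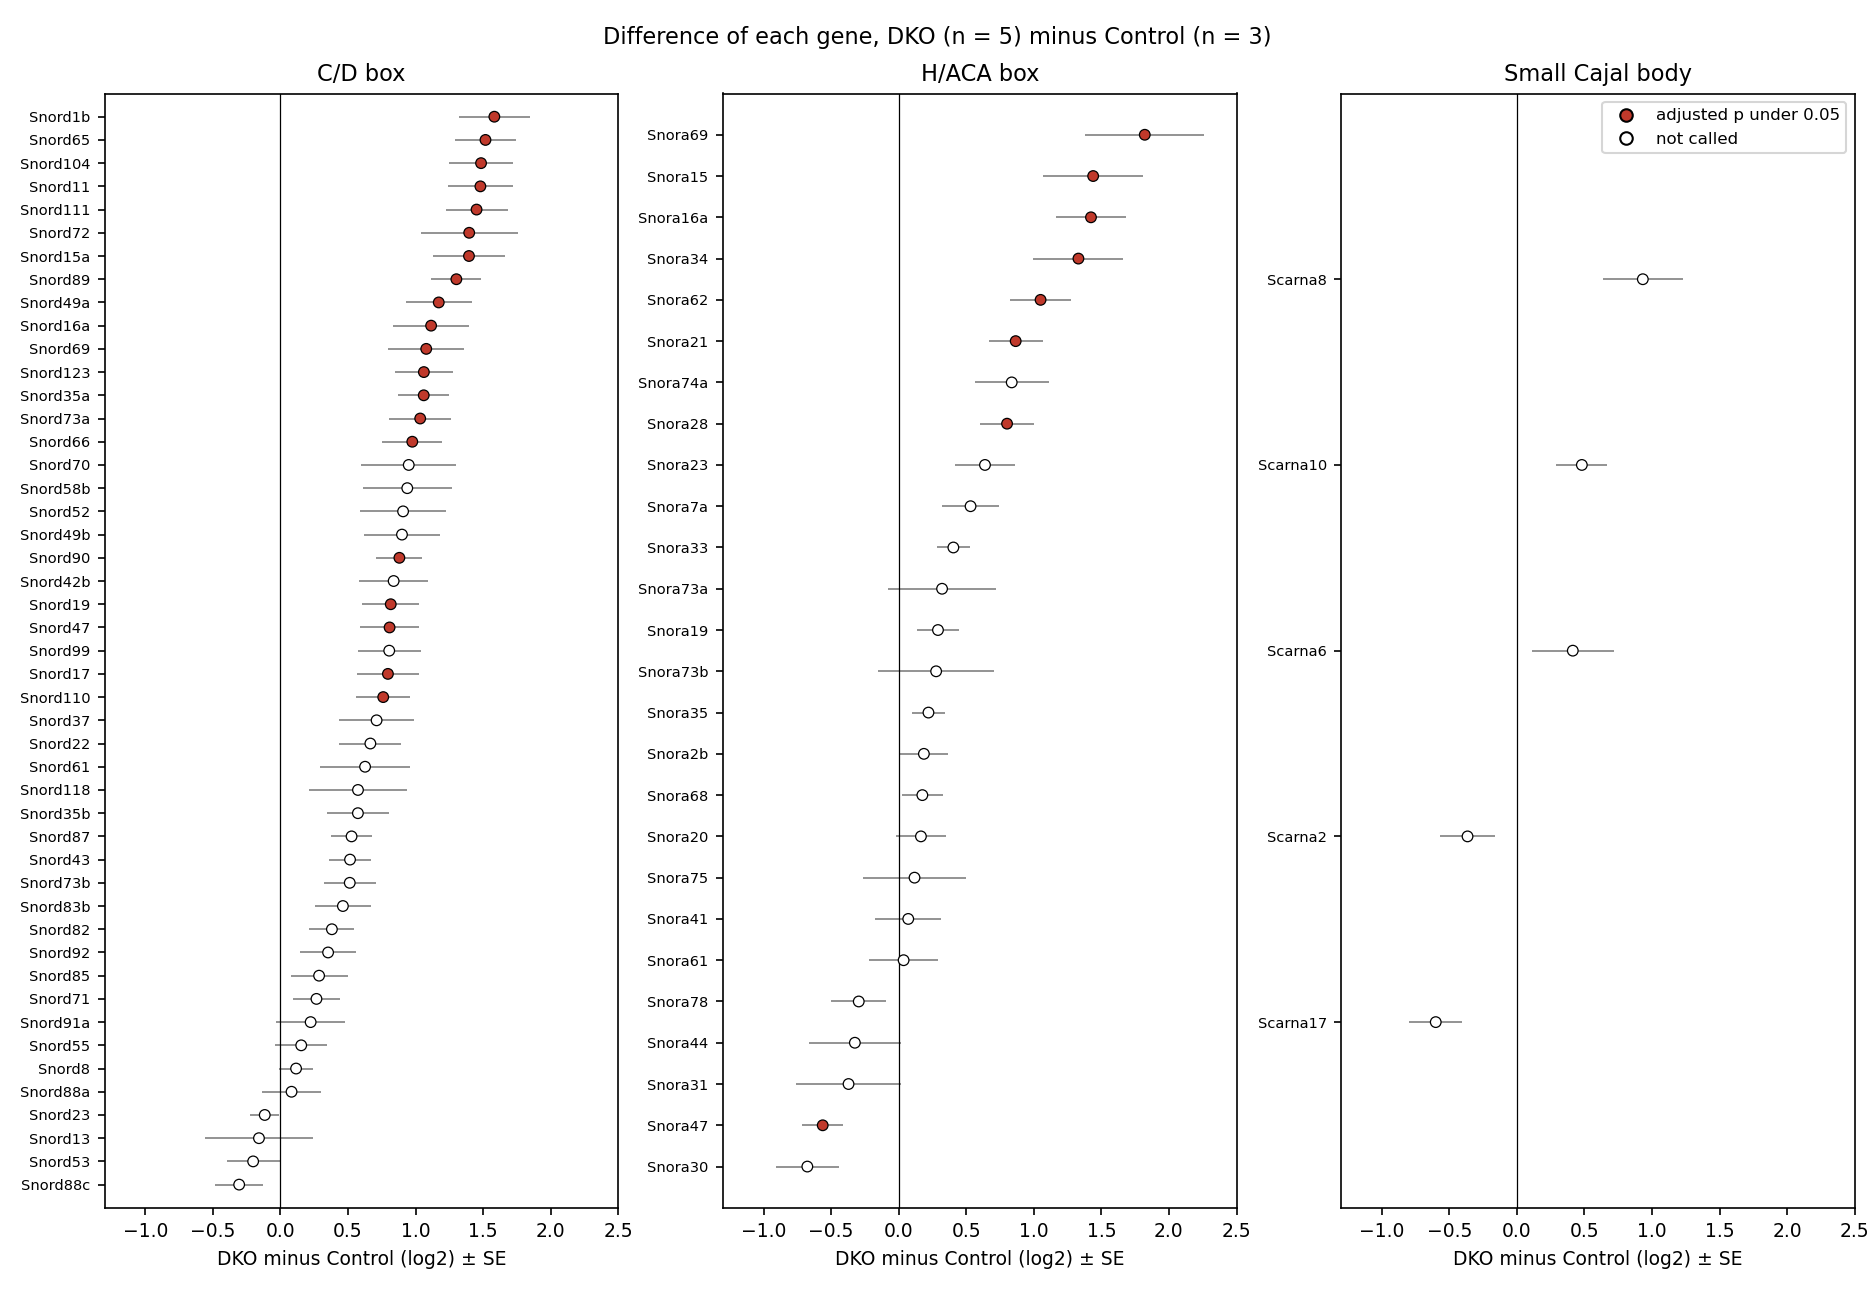
Difference of each of the 78 genes, DKO (n = 5) minus Control (n = 3), in log2 units with its SE, by class, with filled points for genes called at an adjusted p under 0.05. The 20 called C/D box genes all lie above 0, and Snora47 is the called gene below 0.

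Among the C/D box genes, Snord65 had 9.92, 9.65, 9.99, 9.66 and 9.67 on the DKO arrays, against 8.87, 8.08 and 7.84 on the Control arrays. All DKO values were above all Control values, and Control replicate 1, the C118 array, was the highest control. The difference was 1.52 ± 0.23 (SE), or 2.86-fold (limma adjusted p = 0.00035). Snord65 guides ribosomal RNA methylation from an intron of the long noncoding RNA gene 2410006H16Rik. Snord104, another C/D box member, had 11.00, 11.39, 11.72, 11.32 and 11.44 in DKO, against 9.72, 10.28 and 9.67 in Control. Its lowest DKO value lay above its highest Control value, which was an H058 array. The difference was 1.48 ± 0.24 (limma adjusted p = 0.00064). Snord89, which lies in no annotated gene, had 9.20, 8.96, 9.47, 9.21 and 9.11 in DKO and 8.02, 7.73 and 7.92 in Control. Both groups were tight and stood apart by 1.30 ± 0.19 (limma adjusted p = 0.00024).

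Snord1b had 9.74, 9.21, 9.75, 9.54 and 9.69 in DKO, against 8.75, 7.74 and 7.52 in Control (difference 1.58 ± 0.26, 3.00-fold). Snord11, from an intron of Nop58, which encodes a C/D core protein, had 9.64, 9.36, 9.60, 9.51 and 9.51 in DKO, against 8.88, 7.98 and 7.28 in Control (difference 1.48 ± 0.24). In both genes the 5 DKO arrays were close together while the 3 Control arrays were spread. The other C/D box genes among the 10 largest called differences with separate groups were Snord111 (1.45), Snord72 (1.40), Snord15a (1.40), Snord49a (1.17) and Snord16a (1.12). Snord35a, from an intron of Rpl13a and 1 of the snoRNAs linked to lipotoxic and oxidative stress in cultured cells, had 10.85, 10.80, 10.84, 10.83 and 10.75 in DKO, against 10.20, 9.84 and 9.22 in Control. The DKO arrays spanned a narrow range above all Control arrays, and the difference was 1.06 ± 0.19 (limma adjusted p = 0.0017). Snord47, from an intron of the growth arrest transcript Gas5, differed by 0.81 ± 0.22 (limma adjusted p = 0.033), with overlapping groups.

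Among the H/ACA box genes, Snora69, from an intron of the ribosomal protein gene Rpl39, had 9.18, 8.90, 9.73, 9.28 and 8.74 in DKO, against 8.39, 7.10 and 6.55 in Control. It had the widest difference of the 78 genes, 1.82 ± 0.44 or 3.53-fold (limma adjusted p = 0.018), and its 3 Control arrays were spread as widely. The 3 arrays of start C118 had 7.99, 8.31 and 8.39, and the 5 H058 arrays had 6.32 to 8.19. Snora16a had 10.27, 10.11, 10.92, 10.02 and 9.84 in DKO and 9.39, 8.54 and 8.50 in Control, groups that did not overlap (difference 1.42 ± 0.26, limma adjusted p = 0.0018). The remaining H/ACA rises were Snora15 (1.44), Snora34 (1.33), Snora62 (1.05), Snora21 (0.87) and Snora28 (0.80). Snora47 was the gene that fell, at 7.30, 7.33, 7.72, 6.75 and 6.99 in DKO, against 7.66, 7.96 and 7.73 in Control. DKO replicate 3 lay within the Control range, and the difference was -0.56 ± 0.15 (limma adjusted p = 0.036).

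Of 5 members that act in cutting the ribosomal RNA precursor, Snora62 rose in DKO and the others, all with estimates above 0, were not called. Snora62, called E2 in human and needed for small-subunit ribosomal RNA in frog oocytes, had 9.67, 8.85, 9.82, 8.93 and 8.98 in DKO, against 8.68, 8.30 and 7.61 in Control (difference 1.05 ± 0.22, limma adjusted p = 0.0075). Its groups did not overlap. Snora73a and Snora73b, near copies that share the host Snhg3 and may share probes, differed by 0.32 ± 0.40 and 0.28 ± 0.43, neither called. On DKO replicate 3 they stood at 9.88 and 10.37, and on the other DKO arrays at 7.27 to 7.93 and 7.60 to 8.41. Snord118, needed for large-subunit ribosomal RNA, differed by 0.57 ± 0.36, and Snord22, needed for small-subunit ribosomal RNA in frog oocytes, by 0.67 ± 0.23, neither called. Snord13, which directs acetylation of small-subunit ribosomal RNA in human cells, differed by -0.16 ± 0.40. Its Control arrays covered 8.14 to 10.38 and its DKO arrays 8.40 to 10.79, so that the groups overlapped.

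Against the single knockouts, 35 genes were higher in DKO than in HRas-KO and 0 lower, where 3.3% of all genes were called higher, 2.32% lower and 5.63% either way. The C/D box gave 25, the H/ACA box 8 and the scaRNAs 2, with medians of 0.86, 0.50 and 0.75, against 0.0086 over all genes. Snora69 (2.33 ± 0.44), Snord72 (1.93 ± 0.36), Snora15 (1.87 ± 0.37) and Snord1b (1.74 ± 0.26) had the largest called differences with separate groups. Against NRas-KO, 16 genes were higher in DKO and 1 lower, where 3.2% and 1.75% of all genes were called (4.95% in all). At an unadjusted p under 0.05 there were 36 of the 78, against 17.4% of all genes. The C/D box gave 12 rises and the H/ACA box 4, and Snora30 fell (-1.07 ± 0.23). Snord65 (1.30 ± 0.23), Snord1b (1.19 ± 0.26), Snord37 (1.16 ± 0.28) and Snord89 (1.14 ± 0.19) led. The count against NRas-KO was 6 without NRas-KO replicate 2, 9 without NRas-KO replicate 3 and 10 without DKO replicates 1 and 3. These comparisons share the DKO arrays with each other and with the Control comparison, so their agreement is no separate evidence.

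Neither single knockout gave a called gene against Control, among the 78 or among all genes (limma). At an unadjusted p under 0.05, HRas-KO had 2 of the 78 and 0.857% of all genes, and NRas-KO had 4 of the 78 and 1.04% of all genes. The estimates leaned opposite ways: 64 of 78 were below 0 in HRas-KO (median -0.16) and 68 of 78 above 0 in NRas-KO (median 0.23). Over all genes these medians were 0.0074 and 0.0062. Both comparisons use the same 3 Control arrays, and the 78 genes share their arrays, so these counts are a description only. Within code start C118 the medians over the 78 were -0.22 for HRas-KO and 0.04 for NRas-KO, and within H058 -0.04 and 0.32. The smallest p-values belonged to Snora47 (-0.40 ± 0.17) and Snord13 (-0.93 ± 0.45) in HRas-KO and to Snord111 (0.80 ± 0.26) and Snora68 (0.40 ± 0.17) in NRas-KO, with adjusted p of 1.00 throughout in limma.

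**Figure D3:**
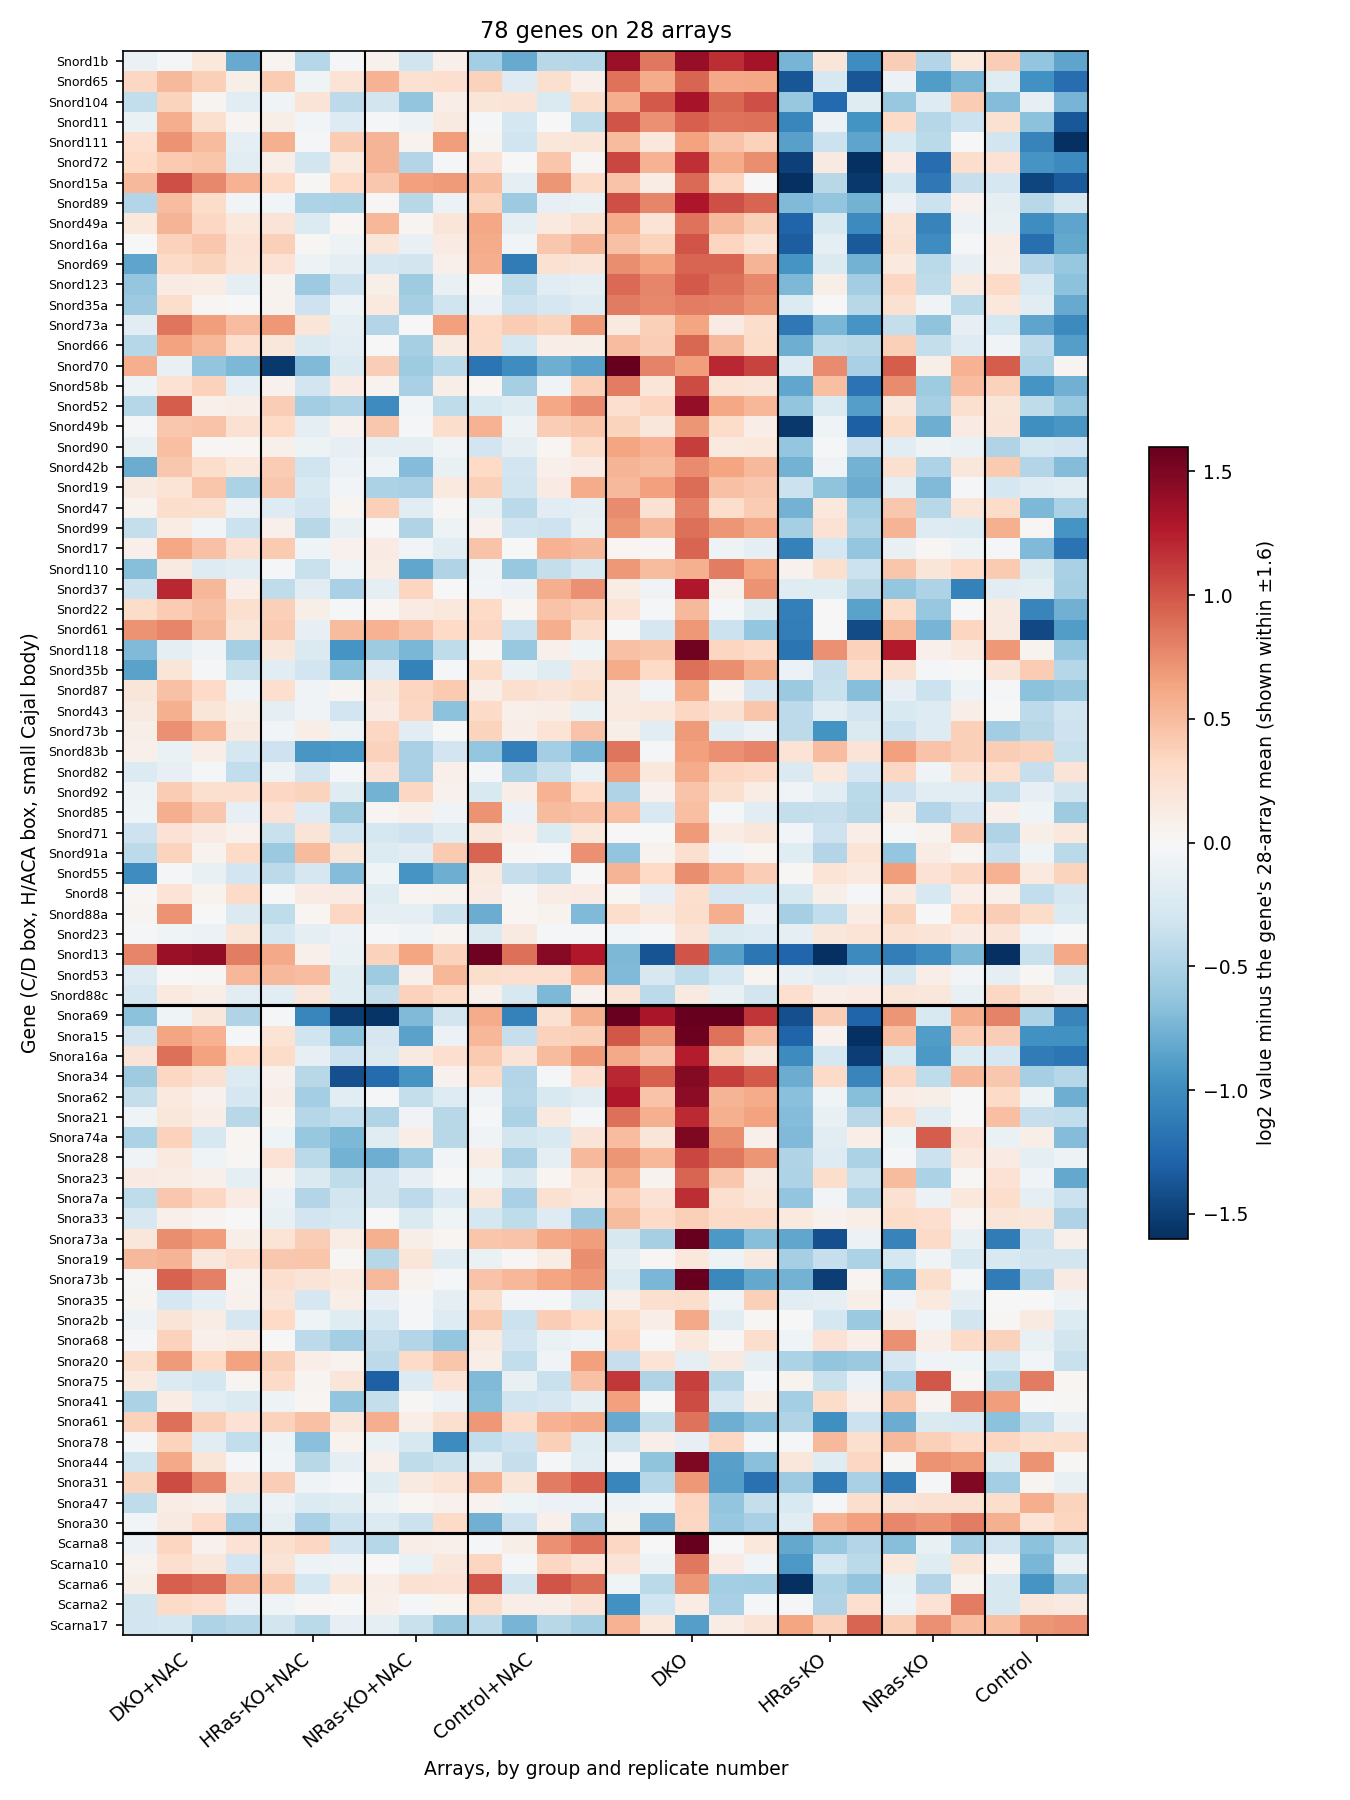
Value of each of the 78 genes minus its 28-array mean (log2, colour) on every array, with groups side by side and genes ordered within each class by their DKO minus Control difference. Most C/D box genes and the upper H/ACA genes are high on the DKO arrays, many lower H/ACA genes are high there on replicate 3 only, and the second HRas-KO array, the first NRas-KO array and the first Control array, all of start C118, are the warmest of their groups for most C/D box genes.

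Antenatal NAC went with opposite leanings in DKO and in Control lungs. In DKO+NAC against DKO, 19 of the 78 genes fell and 4 rose, where 6.46% of all genes were called lower and 5.74% higher. The C/D box gave 13 falls and 1 rise, and the H/ACA box 6 falls and 3 rises, while 0 of 5 scaRNAs were called. Class medians were -0.28, -0.22 and -0.17, and the median over the 78 was -0.25, against 0.015 over all genes. In Control+NAC against Control, 15 genes rose and 4 fell, where 7.86% of all genes were called higher and 5.68% lower. The C/D box gave 12 rises and 2 falls, the H/ACA box 2 and 1, and the scaRNAs 1 and 1, with class medians of 0.41, 0.11 and 0.48 and a median over the 78 of 0.30, against 0.021 over all genes. The Control count of 19 was 8 when Control replicate 2 was left out. DKO arrays enter both the DKO comparisons and Control arrays both the Control comparisons, so these results are not independent of each other.

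Several genes that stood high in DKO stood lower with NAC. Snord104 had 10.01, 10.76, 10.45 and 10.22 in DKO+NAC, all below the DKO range of 11.00 to 11.72 (difference -1.01 ± 0.22, limma adjusted p = 0.0027). In Control+NAC it had 10.61, 10.62, 10.18 and 10.69, against 9.67 to 10.28 in Control (0.64 ± 0.25, not called). The NAC difference in DKO minus the NAC difference in Control was -1.65 ± 0.33 (limma adjusted p = 0.028), and Snord104 was the gene among the 78 called in that test, where 0.271% of all genes were called lower and 0.117% higher. It lost the call in a fit of the 4 groups alone (adjusted p = 0.055), and the number of called members ran between 0 and 5 as single arrays were left out. The median of this contrast was -0.79 over the C/D box and -0.34 over the H/ACA box.

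Snora69 had 6.95, 7.53, 7.78 and 7.11 in DKO+NAC, against 8.74 to 9.73 in DKO, which gave the widest NAC difference of the 78 (-1.82 ± 0.40, limma adjusted p = 0.0036). No DKO+NAC array reached the DKO range. In Control+NAC it ran between 6.52 and 8.20 and did not differ by the test from Control (0.34 ± 0.46). Snord1b had 8.25, 8.32, 8.54 and 7.55 in DKO+NAC, again below all DKO arrays (-1.42 ± 0.24, limma adjusted p = 0.00032). The other called falls beyond Snord35b (-0.89) were Snord70 (-1.35), Snora34 (-1.20), Snord123 (-0.99), Snora62 (-0.97) and Snord89 (-0.95). Snord35a had 9.44, 10.31, 10.05 and 10.02 in DKO+NAC, below its DKO range (-0.86 ± 0.17, limma adjusted p = 0.0016), and 9.68 to 9.93 in Control+NAC, within its Control range (0.04 ± 0.20).

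**Figure D4:**
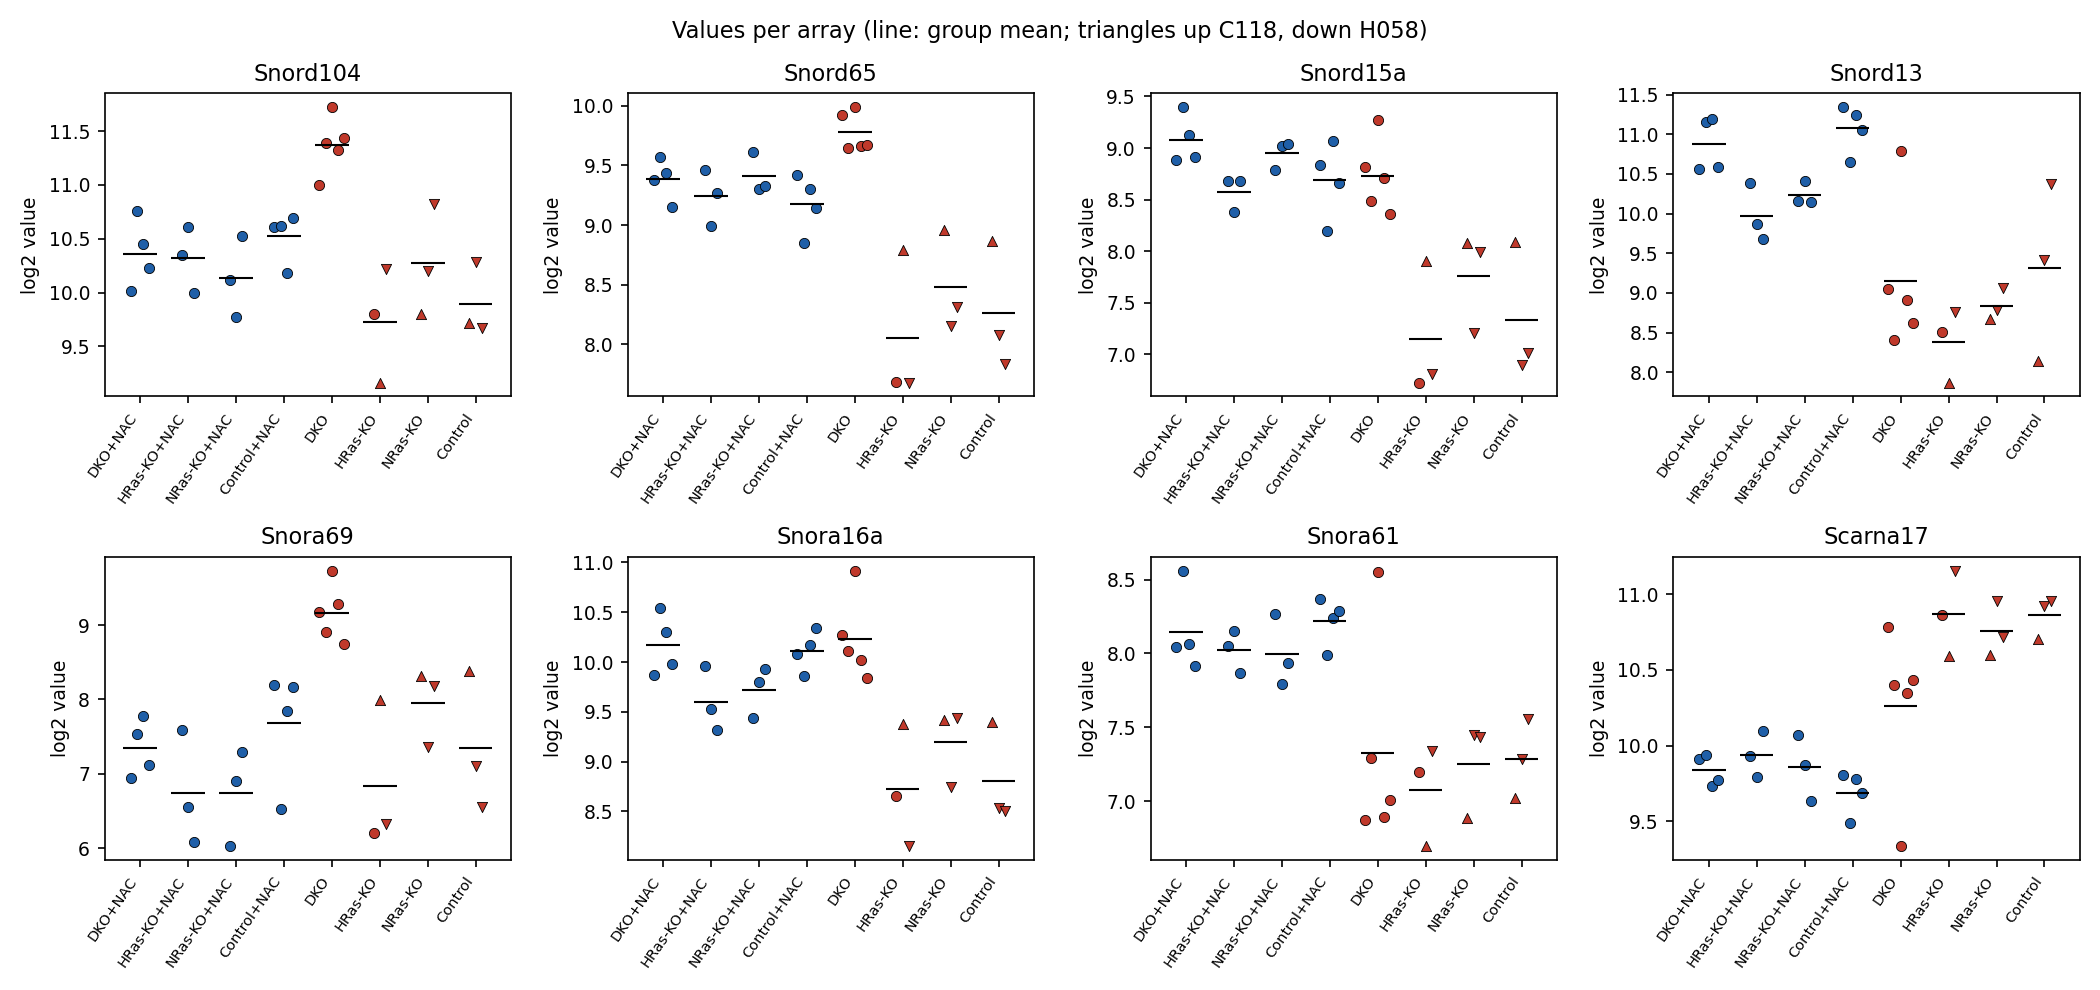
Values per array (log2, vertical axis) of 8 genes in all 8 groups, with group means as lines and code starts C118 and H058 as triangles. Snord104 and Snora69 are high in DKO alone, Snord15a and Snord65 are low in the 3 other untreated groups, and Snord13 is higher and Scarna17 lower on most arrays with NAC, while DKO replicate 3 (both genes) and Control replicate 3 (Snord13, 10.38) lie among the treated values or beyond them.

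Snord15a and Snord65, chosen here after their values were seen, stood higher on average in DKO and in the NAC groups than in the other untreated groups. Snord15a, from an intron of the ribosomal protein gene Rps3, had 8.88, 9.40, 9.13 and 8.91 in DKO+NAC and 8.36 to 9.27 in DKO (0.35 ± 0.25, not called). It had 8.84, 8.20, 9.06 and 8.66 in Control+NAC, against 8.09, 6.89 and 7.01 in Control (1.36 ± 0.28, limma adjusted p = 0.0020). All Control+NAC arrays were above all Control arrays, the C118 array being close behind. NAC differences of Snord15a were also called in HRas-KO (1.43 ± 0.30) and NRas-KO (1.19 ± 0.30). Snord65 behaved alike, with NAC differences of -0.39 in DKO (not called), 1.19 in HRas-KO and 0.92 in Control, and 0.94 in NRas-KO. Snora16a had NAC differences of -0.06 ± 0.23 in DKO and 0.52 ± 0.29 in NRas-KO, neither called, and of 0.87 ± 0.29 in HRas-KO and 1.30 ± 0.27 in Control, both called.

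Snord13 rose with NAC in 3 of the 4 genotypes by the test. It had 10.56, 11.16, 11.20 and 10.59 in DKO+NAC, against 9.05, 8.40, 10.79, 8.91 and 8.62 in DKO (1.72 ± 0.37, 3.30-fold, limma adjusted p = 0.0025). DKO replicate 3 lay within the DKO+NAC range, and the other DKO arrays lay below it. In HRas-KO+NAC it had 10.38, 9.86 and 9.68, against 8.51, 7.87 and 8.76 in HRas-KO (1.59 ± 0.45, limma adjusted p = 0.019). In Control+NAC it had 11.34, 10.66, 11.24 and 11.06, against 8.14, 9.42 and 10.38 in Control (1.76 ± 0.42, limma adjusted p = 0.0056). Neither pair of groups overlapped. In NRas-KO+NAC it had 10.15, 10.41 and 10.14, against 8.67, 8.78 and 9.07 in NRas-KO (1.40 ± 0.45, limma adjusted p = 0.059), also without overlap. Snora61 moved in a similar way, by 0.82 in DKO, 0.94 in HRas-KO and 0.93 in Control, all called, and by 0.74 in NRas-KO, not called.

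Scarna17 went the other way. It had 9.91, 9.94, 9.73 and 9.77 in DKO+NAC, against 10.79, 10.40, 9.34, 10.35 and 10.43 in DKO (-0.42 ± 0.18, not called), where DKO replicate 3 was below every treated array. It fell in HRas-KO+NAC (-0.93 ± 0.22), NRas-KO+NAC (-0.90 ± 0.22) and Control+NAC (-1.17 ± 0.20), with adjusted p of 0.0058, 0.013 and 0.00042 in limma. Values were 9.93, 9.79 and 10.10 in HRas-KO+NAC, against 10.59 to 11.16 in HRas-KO, and 9.49 to 9.81 in Control+NAC, against 10.70 to 10.96 in Control. Neither pair overlapped. A second, dimmer probe set of the gene also gave the fall in DKO (-0.78, adjusted p = 0.0011 over all rows of the table). Scarna6 rose in HRas-KO+NAC (1.05 ± 0.34) and Control+NAC (1.24 ± 0.32), and Scarna2, Scarna8 and Scarna10 were not called in the 4 NAC comparisons.

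In HRas-KO+NAC against HRas-KO, 16 genes rose and 2 fell, where 6.73% and 5.1% of all genes were called. The C/D box gave 11 rises, the H/ACA box 4 and the scaRNAs 1, and the median over the 78 was 0.30, against 0.019 over all genes. The count of 18 was 9 without HRas-KO replicate 1, 11 without HRas-KO replicate 3, 6 without HRas-KO+NAC replicate 1 and 11 without HRas-KO+NAC replicate 3. Of its 16 rises and the 15 in Control+NAC, 2 comparisons with no array in common, 14 genes were shared, 87.5% of the HRas-KO list and 93.3% of the Control list. Over all genes, 1032 of the 1493 and 1743 called higher were shared, 69.1% and 59.2% of those lists. The difference between these shares was not tested. They included Snord13, Snord15a, Snord65, Snord73a, Snora16a and Scarna6. Both untreated groups hold 1 C118 array and at least 1 H058 array, starts between which member levels differed. With NAC, all 3 HRas-KO+NAC arrays and Control+NAC replicate 4 carry start T453, so the 2 comparisons share starts on both sides. In NRas-KO+NAC against NRas-KO, 2 genes rose (Snord15a and Snord65) and 5 fell (Snord55, Snora30, Snora68, Snora78 and Scarna17), where 2.86% and 3.56% of all genes were called (6.42% in all). At an unadjusted p under 0.05 there were 21 of the 78, against 19.8% of all genes. That count of 7 was 2 without NRas-KO replicate 2 and 4 without NRas-KO+NAC replicate 2.

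Within the NAC arm, 0 of the 78 genes and 0 of all genes were called when DKO+NAC, HRas-KO+NAC or NRas-KO+NAC was set against Control+NAC (limma). At an unadjusted p under 0.05 there were 5, 3 and 9 of the 78, against 9.54%, 6.35% and 10.5% of all genes. Median differences were 0.05 in DKO+NAC (49 of 78 above 0), -0.15 in HRas-KO+NAC and -0.18 in NRas-KO+NAC. Within code start T445 the DKO+NAC median was 0.20, and within T453 -0.21, each from 1 DKO+NAC array. Snord83b, whose lowest DKO+NAC array (6.62) stood above its highest Control+NAC array (6.35), had the smallest p in the DKO+NAC comparison (0.70 ± 0.20, limma adjusted p = 0.25). The C/D median exceeded the H/ACA median by 0.0012 there, against 0.52 in DKO against Control.

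By RefSeq annotation (GRCm38.p6), 74 of the 78 genes lie inside another gene, and 63 of these have a measured containing gene, 50 such genes in all. Containment was read from chromosome and span, with no check of strand or intron, so a containing gene need not be the host. Where a small RNA lay in several measured genes, the first was set against it. In DKO against Control 1 of the 50 containing genes rose and 0 fell, near the 2.48% and 1.35% of all genes called there. The containing genes had a median of 0.02, against a median of 0.63 for the 63 small RNAs. The containing gene that rose was 2410006H16Rik (0.66, adjusted p = 0.016), which holds Snord49a, Snord49b and Snord65. The small RNA had the larger difference in 51 of 63 cases. In DKO+NAC against DKO, 11 of the 50 containing genes rose and 2 fell (median 0.09), where 5.74% and 6.46% of all genes were called, while the small RNAs had a median of -0.17. Ipo7 rose by 0.64 and its guest Snora23 differed by -0.38, and Cct6a rose by 0.42 and its guest Snora15 differed by -0.71, neither guest called. In Control+NAC against Control 6 of the 50 rose and 2 fell, near the 7.86% and 5.68% of all genes called there.

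**Figure D5:**
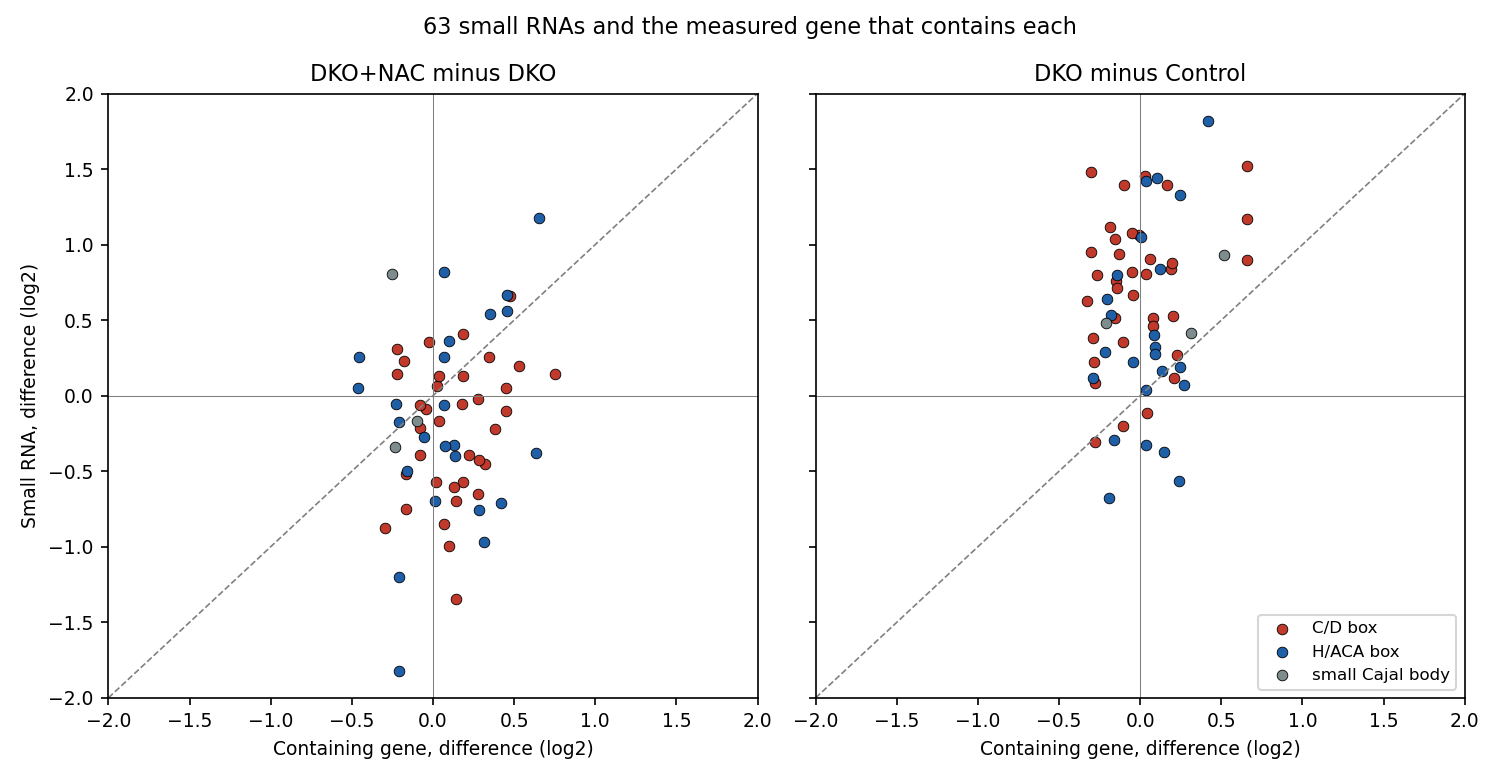
Difference of each of 63 small RNAs (vertical axis, log2) against that of the measured gene that contains it (horizontal axis, log2), for DKO+NAC minus DKO on the left and DKO minus Control on the right, with the line of equal change dashed. In DKO minus Control the containing genes stay between -0.33 and 0.66 while the small RNAs reach 1.82.

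Guests of 1 containing gene differed among themselves. Snhg12, a long noncoding RNA gene, holds 4 members and itself differed by 0.04 between DKO and Control. Snora16a rose (1.42), while Snord99 (0.81), Snora61 (0.04) and Snora44 (-0.32) were not called. In Kansl2 (0.25), Snora34 rose by 1.33 and Snora2b differed by 0.19. In Nop58, Snord11 rose by 1.48 and Snord70 differed by 0.95, and in Rps3a1 Snord73a rose by 1.03 and Snord73b differed by 0.51. Both guests of Gnl3 rose, Snord19 by 0.82 and Snord69 by 1.08. The difference between guests was not tested. Since the 4 Snhg12 guests are transcribed from 1 start, its promoter window is shown, from RefSeq (GRCm38.p6), chr4:132308428-132308727, plus strand, a window around the annotated start. Capitals mark CTTTC within bases 241 to 260, around the start, a pyrimidine stretch of the kind found at starts of translation-related genes.

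Snhg12: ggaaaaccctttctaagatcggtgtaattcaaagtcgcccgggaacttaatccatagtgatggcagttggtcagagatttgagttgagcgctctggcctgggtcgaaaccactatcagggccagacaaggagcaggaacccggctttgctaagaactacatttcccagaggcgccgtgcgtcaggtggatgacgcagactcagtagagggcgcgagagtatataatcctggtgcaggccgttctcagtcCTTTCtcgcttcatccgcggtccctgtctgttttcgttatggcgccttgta

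In that window of all 32851 RefSeq promoters, CTTTC was found on the gene's strand in 2.44% and on the other strand (GAAAG) in 2.23%. Among 54 promoters of containing genes it was found in 9.26% (5 promoters) on the gene's strand and 1.85% (1 promoter) on the other. The Kansl2 promoter held it on neither strand of that window. A match is a description of letters only. Across the 78 genes, the DKO minus Control difference had a Spearman correlation of -0.12 with annotated RNA length and 0.21 with mean intensity, given as a description over genes measured on the same arrays.

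Transcripts were measured for 27 proteins that carry, assemble or trim these RNAs or build Cajal bodies. Of these transcripts 2 rose and 1 fell in DKO against Control, 11.1% called where 3.83% of all genes were. Of 3 C/D core protein genes measured, Snu13, whose protein binds the C/D box fold first, rose by 0.33 (limma adjusted p = 0.033). Of 4 H/ACA core protein genes, with a median difference of -0.28, Nop10 fell by 0.52 (limma adjusted p = 0.029) and Gar1 differed by -0.50 (limma adjusted p = 0.086). Of 13 assembly and trimming factor genes Naf1, which encodes an H/ACA assembly factor, rose by 0.52 (limma adjusted p = 0.039). None of 7 Cajal body protein genes was called. With NAC in DKO, Nop10 rose by 0.72, Naf1 fell by 0.42 and Exosc10, which encodes a nuclear exosome nuclease that trims snoRNA ends, fell by 0.58. These were 11.1% of the 27, near the 12.2% of all genes called in that comparison. With NAC in Control, Snu13 rose by 0.36, Nop10 rose by 0.46, Exosc10 fell by 0.35 and Smn1 fell by 0.42, all called by limma. They made 14.8% of the 27, near the 13.5% of all genes called there.

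Some cell markers were called between the same groups. Of all genes, 3.83% were called in DKO against Control, 12.2% in DKO+NAC against DKO and 13.5% in Control+NAC against Control. Some calls in lists of this size are thus to be looked for in the NAC comparisons. Over 10 lung mesenchyme and endothelium genes 1 rose and 3 fell in DKO against Control: the endothelial receptor gene Tek rose by 0.62, and the endothelial receptor gene Kdr fell by 0.95, Tcf21 by 0.69 and Eln by 0.65. In DKO+NAC against DKO 2 of these genes rose (Kdr and Tcf21) and 3 fell (Tek, Col1a1 and Cdh5), and in Control+NAC against Control 3 fell (Col1a1, Eln and Cdh5). Lung epithelium genes gave 0 calls of 12 in DKO against Control, 2 lower in DKO+NAC against DKO and 3 lower in Control+NAC against Control. Over 7 measured erythroid genes the median difference was 0.44 in DKO against Control (1 called higher), and the array means were 0.18 to 0.83 in DKO and -0.28 to 0.17 in Control. In DKO+NAC against DKO the erythroid median was -0.47 (4 called lower), with array means of -0.09 to 0.05 in DKO+NAC. Over 14 skeletal muscle genes array means were -0.35 to -0.22 in DKO+NAC, -0.21 to 1.18 in DKO and -0.10 to 0.61 in Control, with 3 called lower in DKO+NAC against DKO and 0 in DKO against Control. Over 11 heart muscle genes 4 were called lower in DKO+NAC against DKO, and over 10 neutrophil genes 2 higher and 1 lower. In DKO against Control the neutrophil genes had a median difference of -0.63 with 0 called, and array means of -0.36 to -0.09 in DKO, against -0.14 to 0.48 in Control. The part of these cells in the snoRNA results was not tested.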

How the data were processed

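Whole lungs of postnatal day 0 mice were profiled on 1-colour whole-transcript arrays, 1 animal per array. Per the labels' protocols, RNA was extracted with TRIZOL and purified on RNeasy columns, and the authors deposited log2 values made with RMA and affy, per the submitters' processing notes (no versions are given there). Column purification retains short RNAs poorly, and such probe sets cannot separate a mature snoRNA from its host intron. Each animal being separate, the spread is between animals. The number of arrays limits the precision. Levels of different probe sets were compared only to pick or drop rows by brightness and in the correlation with mean intensity.

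Of 41345 rows, 23521 had 1 gene symbol, 1814 several and 16010 none listed. The brightest row per gene gave 22180 genes. limma 3.58.1 (R 4.3.3) fitted 8 group means to 28 arrays, with 20 residual degrees of freedom, for 13 contrasts, and p-values were adjusted over all genes. On simulated data with 200 genes changed by 1 log2 unit between DKO and Control, 190 of them (95%) were recovered, beside 12 false calls. The simulated noise was independent between genes and arrays and held no code start effect. It therefore checks the fit only and cannot measure how reliable the DKO calls are. Members and lists were chosen with earlier results of these data known. Named members were called genes with separate groups and the largest differences (10 C/D box, 6 H/ACA box and 3 scaRNA genes in DKO against Control and DKO+NAC or Control+NAC against untreated, 4 elsewhere, the 3 smallest p where none was called), plus ribosomal RNA processing members and guests of shared hosts. Others were named after their values were seen: those of the overlap between NAC comparisons, the remaining falls, the second Scarna17 row and the called cell markers. Host positions served for names and containment only. All 78 genes matched RefSeq. No snoRNA sequence was used here, and Hras was not analysed here. A treatment note names 3 samples as given NAC, while the sample labels name 14, and these were followed.

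Alternatives were the mean of a gene's rows, dropping the dimmest 40% of rows, quantile normalization again, median centring, trended moderation, only the arrays compared, the replicate number or the code start as a block (the start as a fixed block only where groups share one), a 1.5-fold minimum and leaving arrays out. Xist as a term, differences within a code start, shared-symbol rows and dropping dim members were added after seeing the data.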

Additional observations from a re-analysis of the deposited data

Results flagged for a closer look

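Of 132 sets of arrays checked, 9 held an array set apart from the rest of its group, where chance gives about 1 in 20. Of these, 4 concerned DKO replicate 3 as the highest array: the scaRNA class mean (0.53), Snora61 (8.55), Snord13 (10.79) and Snord17 (9.13). DKO replicate 2 was lowest for Snord83b (6.87). In Control+NAC, replicate 1 was highest for Snora47 (7.43), replicate 3 lowest for Snord104 (10.18) and replicate 2 lowest for Snord17 (8.20). In DKO+NAC, replicate 1 was lowest for the C/D minus H/ACA class mean (-0.038). Snord104 stood out by the test of the NAC difference in DKO minus that in Control (-1.65, limma adjusted p = 0.028).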

How the results depend on the processing

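Of 53 named differences recomputed under the alternatives, 0 changed direction, and the other named differences were not recomputed. All but the Snord104 contrast had been chosen as called with separate groups. Leaving out arrays could not reverse those, so their unchanged direction is no evidence of stability. Calls among the 53 were lost most often with only the compared arrays fitted (12), without Control replicate 2 (12), without Control replicate 3 (10) and without DKO replicates 1 and 3 (9). DKO against Control (28 members called) gave 13 with only the compared arrays and 16 without DKO replicates 1 and 3. DKO against NRas-KO (17) gave 10 without those replicates. The test of the NAC difference in DKO minus that in Control (1) gave 3 without the dimmest 40% of rows or with array medians subtracted, 0 with only the compared arrays and 2 without DKO replicates 1 and 3. The C/D minus H/ACA difference between DKO and Control (0.52) was 0.33 with means. The cause of these shifts was not tested. Leaving out 1 array at a time gave 12 to 32 for DKO against Control, 6 to 18 for DKO against NRas-KO, 6 to 18 for HRas-KO+NAC, 2 to 7 for NRas-KO+NAC and 8 to 21 for Control+NAC, each against its untreated group. It gave 0 to 5 for the NAC difference in DKO minus that in Control, with 5 without Control+NAC replicate 2, 3 without Control replicate 1 and 0 without Control replicate 3, DKO replicate 5, DKO+NAC replicate 1 or Control+NAC replicate 1 or 4. The C/D minus H/ACA difference ran between 0.35 and 0.76, without Control replicates 3 and 1. Same-numbered arrays did not deviate together (mean correlation 0.021 over 37 pairs, 13 of them over 0.1). With the replicate number as a block, DKO against Control gave 23, DKO against NRas-KO 17, DKO+NAC against DKO 24 and Control+NAC against Control 19. With code start as a random block DKO against Control gave 26, though DKO shares no start with another group.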

Other observations

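The 46 probe sets that share their annotation with a second symbol were fitted with all rows of the table, after seeing the data. The 16 Snord116 probe sets all had the same mean, 3.89, and 0 were called in the 12 group comparisons. Of the 30 others, 6 rose and 0 fell in DKO against Control, where 1.54% of all rows were called higher and 1.21% lower. In DKO+NAC against DKO 1 rose and 8 fell (5.09% and 4.9% of all rows), and in Control+NAC against Control 1 rose and 4 fell (5.66% and 4.27%).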
